A study of Mus musculus with 12 samples.

Results

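The CXC chemokines are small secreted ligands that guide leukocytes, and 10 of their genes (Cxcl1, Cxcl2, Cxcl3, Cxcl5, Cxcl9, Cxcl10, Cxcl11, Cxcl12, Cxcl14 and Cxcl16) were followed here by their symbols, of 55335 genes in the count table. All 10 symbols were found, each in 1 row. The RNA of 12 libraries was sequenced in 4 groups of n = 3: bone-marrow-derived macrophages (BMDMs) and livers of Tshr f/f and of Tshr MKO mice. Tshr f/f mice carry a floxed allele of Tshr, the receptor for thyrotropin (TSH), with loxP sites around exon 10 up to the stop codon, and served as controls. Tshr MKO mice (Tshrf/f,Lyz2-Cre) carry the same floxed allele and the Lyz2-Cre transgene, whose promoter is active in myeloid cells. Hepatocytes and other liver cells that are not myeloid therefore keep the receptor gene, while the paper expects its deletion in macrophages of all tissues. All mice were male littermates labelled 6 weeks old on the C57BL/6N background. The paper took BMDMs from mice aged 6 to 8 weeks. In both genotypes the BMDMs were differentiated over 7 days in medium holding M-CSF at 10 ng/mL, then exposed to 1 ng/mL of TSH over 24 h, and no library without TSH was included. The livers of both genotypes came from mice on a high-fat diet (HFD) over 9 weeks that fasted 8 h and then received insulin at 1.5 U/kg, 5 min before they were killed. The paper started this diet at 6 weeks of age, so these mice were older than their label when killed. The methods give 3 mice per group for both tissues.

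In BMDMs, 7 of the 9 chemokines with enough counts were lower in Tshr MKO than in Tshr f/f cells at an unadjusted p under 0.05 (10.2% of all genes tested), led by Cxcl1 (46.3-fold), Cxcl3 (40.0-fold) and Cxcl10 (38.3-fold). None of these differences passed an adjusted p of 0.05 in edgeR, and the 3 Tshr f/f libraries differed widely among themselves. In livers, no chemokine passed it either, and at an unadjusted p under 0.05 Cxcl14 was lower and Cxcl10 higher in livers labelled Tshr MKO.

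CXC chemokines take their name from 2 cysteines near the start of the mature protein that are separated by a single residue. Members with the motif Glu-Leu-Arg (ELR) just before the first cysteine bind Cxcr2 and attract neutrophils, and macrophages make them within hours of an NF-kB signal. Cxcl9, Cxcl10 and Cxcl11 lack the motif, are induced by interferons and attract activated T cells and NK cells through Cxcr3. Cxcl12 is a homeostatic ligand of Cxcr4 made by stromal and endothelial cells, Cxcl14 is a homeostatic chemokine of epithelia, and Cxcl16 is a membrane-bound ligand of Cxcr6 that is also a scavenger receptor on macrophages.

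The coding sequence around the name-giving motif is shown for each member because it sets the division used below. The capitals mark the codons of Glu-Leu-Arg, where they directly precede the first cysteine codon, and the 2 cysteine codons, read 5′ to 3′ in the longest protein-coding transcript of GENCODE M21 (GRCm38).
Cxcl1: aatGAGCTGCGCTGTcagTGCctgcagacc
Cxcl2: agtGAACTGCGCTGTcaaTGCctgaagacc
Cxcl3: agtGAGCTGCGCTGTcagTGCctgaacacc
Cxcl5: acgGAGCTGCGTTGTgttTGCttaaccgta
Cxcl9: aggaatgcacgaTGCtccTGCatcagcacc
Cxcl10: aggacggtccgcTGCaacTGCatccatatc
Cxcl11: aaacaggggcgcTGTcttTGCatcggcccc
Cxcl12: ctgagctaccgaTGCcccTGCcggttcttc
Cxcl14: gacgggtccaagTGTaagTGTtcccggaag
Cxcl16: gtcgctggaagtTGTtctTGTgatcgtacc
The Glu-Leu-Arg codons were present in 4 members (Cxcl1, Cxcl2, Cxcl3 and Cxcl5) and absent at that place in the other 6. The 4 ELR genes lay within 146.6 kb on chromosome 5 (GRCm38, 90759360 to 90905938, all on the plus strand), and Cxcl9, Cxcl10 and Cxcl11 within 44.1 kb further along the same chromosome (92321347 to 92365485, all on the minus strand).

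The 250 bases before the RefSeq start site (GRCm38.p6) are shown for the members that were lowest in Tshr MKO BMDMs, read 5′ to 3′ on the strand of the gene. The capitals mark matches to the NF-kB consensus and, in Cxcl10, to the interferon-stimulated response element (ISRE), both searched on both strands.
Cxcl1, chr5:90890995-90891244, plus strand: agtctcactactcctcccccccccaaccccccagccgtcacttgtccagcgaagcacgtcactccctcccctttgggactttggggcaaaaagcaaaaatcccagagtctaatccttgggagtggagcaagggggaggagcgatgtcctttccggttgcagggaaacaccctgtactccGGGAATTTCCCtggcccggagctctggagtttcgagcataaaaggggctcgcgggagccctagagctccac
Cxcl2, chr5:90903649-90903898, plus strand: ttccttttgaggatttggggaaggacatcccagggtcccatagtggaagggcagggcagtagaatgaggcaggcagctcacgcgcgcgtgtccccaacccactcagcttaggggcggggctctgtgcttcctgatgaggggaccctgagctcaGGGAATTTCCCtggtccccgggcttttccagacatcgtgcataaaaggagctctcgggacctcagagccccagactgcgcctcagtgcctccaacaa
Cxcl3, chr5:90785851-90786100, plus strand: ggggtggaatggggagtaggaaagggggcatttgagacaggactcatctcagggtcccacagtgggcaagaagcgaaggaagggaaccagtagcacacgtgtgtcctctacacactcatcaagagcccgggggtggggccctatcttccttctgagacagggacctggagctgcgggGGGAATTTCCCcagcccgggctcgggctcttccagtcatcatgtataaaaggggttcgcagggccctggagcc
Cxcl10, chr5:92348890-92349139, minus strand: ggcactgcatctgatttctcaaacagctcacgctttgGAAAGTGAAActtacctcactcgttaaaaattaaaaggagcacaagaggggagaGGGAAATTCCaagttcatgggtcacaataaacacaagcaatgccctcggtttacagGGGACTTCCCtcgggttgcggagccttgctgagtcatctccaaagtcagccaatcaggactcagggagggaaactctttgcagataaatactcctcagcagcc
The windows of Cxcl1, Cxcl2 and Cxcl3 each held 1 NF-kB match with the same letters, within 61 to 97 bases of the start site. The window of Cxcl10 held 2 NF-kB matches and 1 ISRE match. The window of Cxcl14 held 1 ISRE match, and those of Cxcl9 and Cxcl12 held neither. Of 32851 RefSeq promoter windows of the same length, 3.9% held an NF-kB match and 2.98% an ISRE match. Windows of Cxcl5, Cxcl11 and Cxcl16 were not analysed here.

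The libraries held 28962878 to 40954211 counts, and levels are given as CPM (the count of a gene over the library total, per 1e+06 counts) after TMM scaling over the 12 libraries. Tshr itself had 0 to 5 counts in a BMDM library and 0 in every liver library, too few to check its deletion. The 8 macrophage markers summed to 10993–11849 CPM in Tshr f/f BMDMs and 14866–22268 CPM in Tshr MKO BMDMs, most of it from Lyz2, the gene whose promoter drives Cre, and the 6 hepatocyte markers summed to at most 0.0576 CPM in BMDMs and to at least 89797 CPM in livers. The Kupffer cell marker Clec4f was at 0 in every BMDM library, but the other markers on its list were not. The 5 on that list summed to 166–372 CPM in Tshr f/f and 48.4–274 CPM in Tshr MKO BMDMs. In livers they summed to 298–804 CPM in Tshr f/f and 259–697 CPM in Tshr MKO. Tshr f/f replicate 3 stood apart among the BMDMs, with a within-tissue normalization factor of 0.738 where the other 5 libraries lay between 0.993 and 1.11. Over the 12 libraries, the scale of the CPM values here, its factor was 1.00, against 1.35 to 1.54 in the other BMDM libraries. A table of receptor counts that accompanies the study lists these liver libraries under the opposite genotype, so liver directions below follow the labels of the samples. In bulk RNA, fewer cells of a type and less RNA per cell cannot be told apart.

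**Figure D1:**
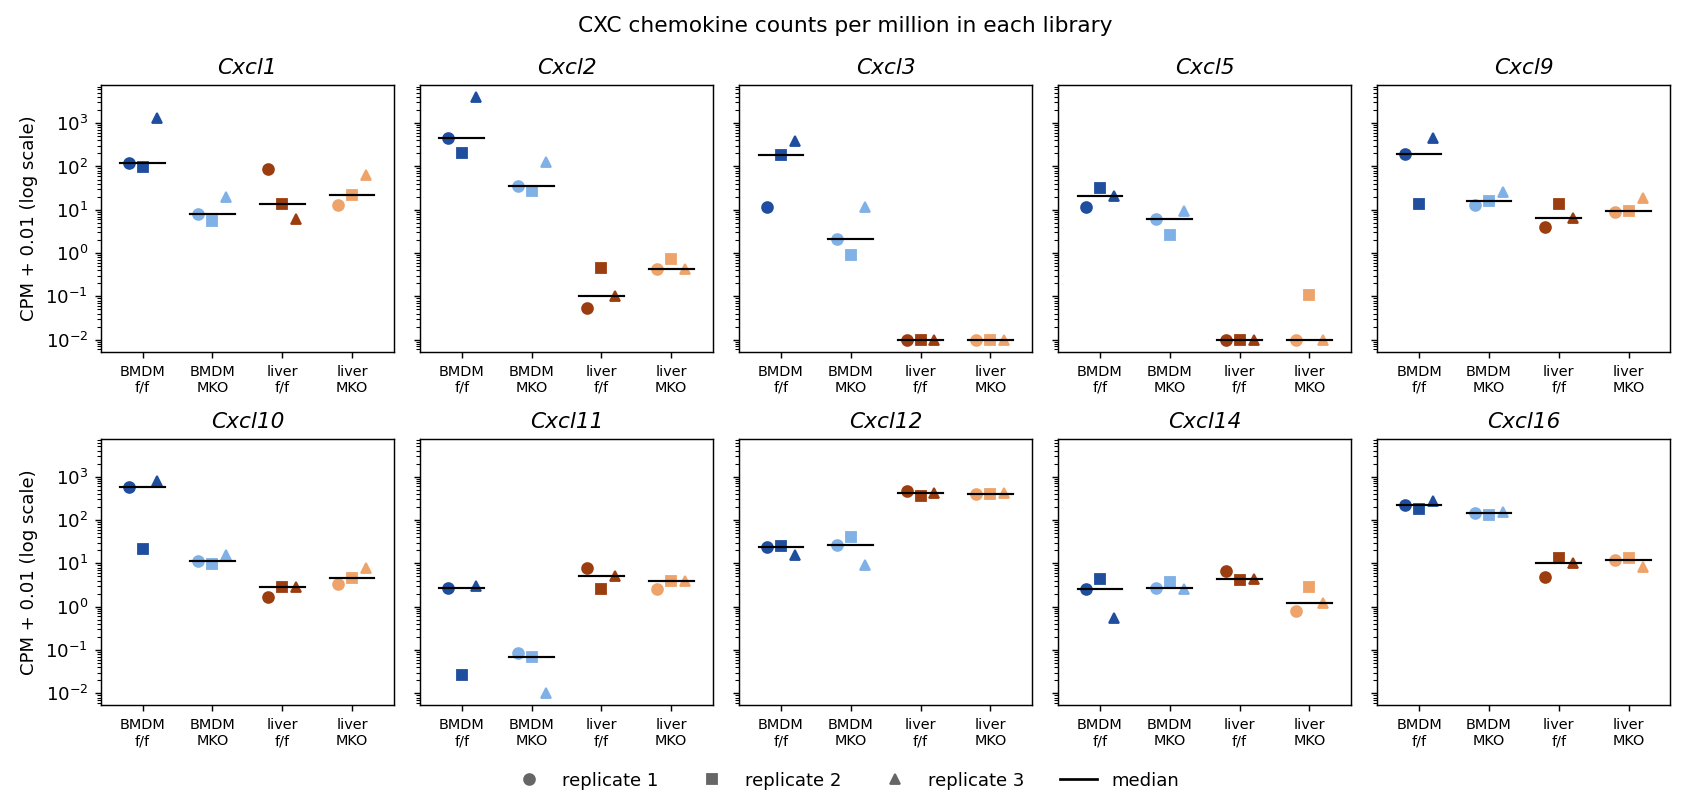
Level of each CXC chemokine in every library, as CPM + 0.01 on a log axis, in BMDMs and livers of both genotypes, with symbols for replicates 1 to 3 and a line at the median of a group. Cxcl1 and Cxcl2 were highest in Tshr f/f BMDM replicate 3, while Cxcl9, Cxcl10 and Cxcl11 of Tshr f/f BMDM replicate 2 lay near the Tshr MKO values, and Cxcl12 was higher in each of the 6 livers than in any BMDM library.

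The first comparison asked how the loss of Tshr in myeloid cells bore on chemokine transcripts of TSH-treated BMDMs. Of 15372 genes tested with edgeR's quasi-likelihood test, 0 (0%) had an adjusted p under 0.05 in either direction, the lowest being 0.218, with 1567 lower (10.2%) and 1189 higher (7.73%) at an unadjusted p under 0.05. Of the 10 chemokines, 9 had enough counts to be tested, of which 7 were lower at an unadjusted p under 0.05, against the 10.2% of all genes, with 0 higher. Their median log2 difference was −3.59, beside 0.01 for all genes. The 3 values of Tshr MKO all lay below the 3 of Tshr f/f in 6 chemokines, where 14% of all genes did so. By DESeq2, whose calls over all genes numbered 1223, 6 chemokines passed an adjusted p of 0.05 (Cxcl2, Cxcl3, Cxcl5, Cxcl9, Cxcl10 and Cxcl16), and Cxcl1 was given no adjusted p.

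All 4 ELR chemokines were lower in the Tshr MKO cells, at a median of −4.99 on the log2 scale. Stellate cell or fibroblast markers were measured beside them: the 6 on the list summed to 468, 1289 and 462 CPM in Tshr f/f and 425, 545 and 285 CPM in Tshr MKO BMDMs, all 4 that were tested had a negative log2 difference (median −0.82, 1 of them at an unadjusted p under 0.05), Lrat was at 0 in all 6 libraries, and their part in the result was not tested. Cxcl1 (ENSMUSG00000029380, chr5:90891241-90893115, plus strand), a principal neutrophil attractant, had 121, 99.0 and 1312 CPM in the 3 Tshr f/f libraries and 7.83, 5.61 and 19.9 CPM in the 3 Tshr MKO libraries. The groups did not overlap, and Tshr f/f replicate 3 stood far above the other 2 Tshr f/f libraries. The log2 difference was −5.53 (SE 1.29, adjusted p = 0.218, edgeR).

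Cxcl2 (ENSMUSG00000058427, chr5:90903871-90905938, plus strand), the partner of Cxcl1 in recruiting neutrophils, had the highest mean level per kilobase of the 4 in Tshr f/f BMDMs. It had 466, 203 and 4001 CPM in Tshr f/f and 35.1, 27.4 and 124 CPM in Tshr MKO BMDMs, without overlap. Its log2 difference of −4.66 (SE 1.34, adjusted p = 0.222) was −2.46 when Tshr f/f replicate 3 was left out and −5.63 when Tshr MKO replicate 3 was. That of Cxcl1 was −3.33 and −6.24 without the same libraries.

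Cxcl3 (ENSMUSG00000029379, chr5:90786103-90789600, plus strand), another Cxcr2 ligand, varied widely among the control cells. It had 11.6, 183 and 387 CPM in Tshr f/f and 2.09, 0.899 and 11.7 CPM in Tshr MKO BMDMs. Tshr f/f replicate 1 and Tshr MKO replicate 3 were nearly equal: they overlapped on this scale and by library totals, and were 15.8 and 15.7 CPM, just apart, with the within-tissue factors of the test. The log2 difference was −5.32 (SE 1.54, adjusted p = 0.222), and it was −4.34 when Tshr f/f replicate 3 was left out and −7.02 when Tshr MKO replicate 3 was.

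Cxcl5 (ENSMUSG00000029371, chr5:90759360-90761624, plus strand), best known from epithelial cells, differed least of the 4. It had 11.7, 32.1 and 21.3 CPM in Tshr f/f and 6.16, 2.54 and 9.16 CPM in Tshr MKO BMDMs, so that its highest library was Tshr f/f replicate 2 and not replicate 3. The log2 difference was −1.88 (SE 0.55, adjusted p = 0.222). Neutrophil markers were measured beside these ligands: the 10 on the list summed to 232–547 CPM in Tshr f/f and 159–332 CPM in Tshr MKO BMDMs, most of it from Csf3r and Mmp8. Of the 7 that were tested, Camp and S100a8 were lower (−3.23 and −2.37 on the log2 scale) and Retnlg and Mpo higher (3.80 and 2.01) in the Tshr MKO cells, each with an unadjusted p under 0.05, while Ly6g was at 0 in 4 of the 6 libraries and at 0.17 CPM at most, and their part in the result was not tested.

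The Cxcr3 ligands Cxcl9 and Cxcl10 ranked the Tshr f/f libraries as Cxcl1 and Cxcl2 did, with replicate 3 highest and replicate 2 lowest. Cxcl3 and Cxcl5 were lowest in replicate 1 instead. Cxcl10 (ENSMUSG00000034855, chr5:92346638-92348889, minus strand), the main interferon-induced attractant of T cells, had 568, 21.2 and 801 CPM in Tshr f/f and 11.3, 9.82 and 15.3 CPM in Tshr MKO BMDMs. Tshr f/f replicate 2 was far below the other Tshr f/f libraries and 1.88 times the median of Tshr MKO, yet the groups did not overlap. The log2 difference was −5.26 (SE 1.23, adjusted p = 0.218), and it was −4.62 without Tshr f/f replicate 3. Without Tshr f/f replicate 2, it passed the threshold in edgeR (log2 −5.82, adjusted p = 0.0381), where the adjusted p ranged from 3.7e-06 to 0.587 over all alternatives.

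Cxcl9 (ENSMUSG00000029417, chr5:92321347-92328079, minus strand), which responds mainly to interferon gamma, had 198, 13.9 and 448 CPM in Tshr f/f and 13.2, 16.3 and 25.3 CPM in Tshr MKO BMDMs. Here the groups overlapped, since Tshr f/f replicate 2 lay between the Tshr MKO values. The log2 difference was −3.59 (SE 1.10, adjusted p = 0.227), and it was −2.55 without Tshr f/f replicate 3.

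Cxcl11 (ENSMUSG00000060183, chr5:92359544-92365485, minus strand), the third Cxcr3 ligand, is annotated as a polymorphic pseudogene in this mouse genome. It had 145, 1 and 108 counts in Tshr f/f and 4, 3 and 0 counts in Tshr MKO BMDMs and did not pass the filter. The groups overlapped through Tshr f/f replicate 2 alone, the library that was also low for Cxcl9 and Cxcl10.

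**Figure D2:**
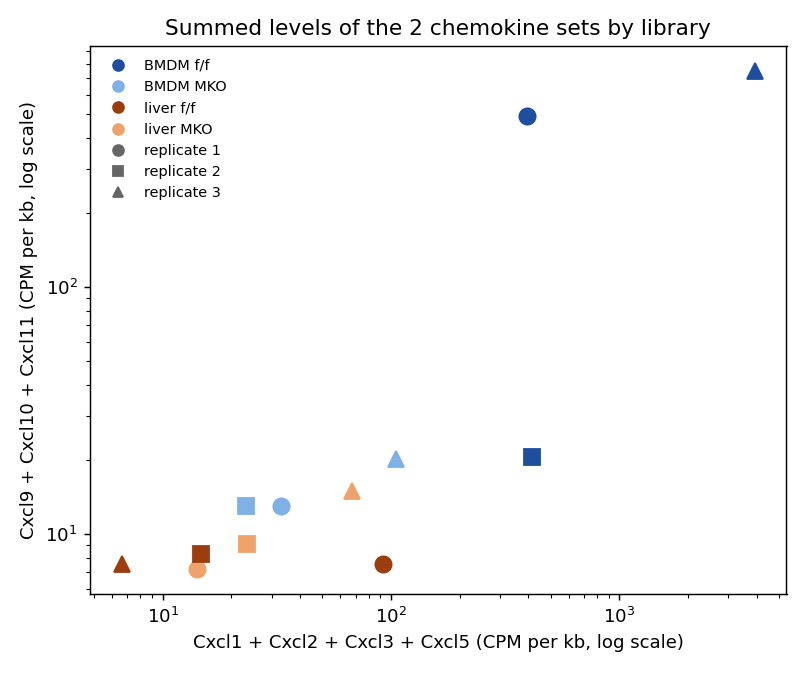
Summed levels per library of Cxcl1, Cxcl2, Cxcl3 and Cxcl5 (x axis) and of Cxcl9, Cxcl10 and Cxcl11 (y axis), each in CPM per kilobase of transcript on log axes, with colours for the groups and symbols for the replicates. Tshr f/f BMDM replicates 1 and 2 lay close on the x axis (396 and 413) and far apart on the y axis (490.4 and 20.5).

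The sums of both sets were compared across these libraries. Per kilobase of transcript, the ELR set reached 396, 413 and 3923 CPM in the Tshr f/f cells, against 33.1, 23.1 and 105 CPM in the Tshr MKO cells. The Cxcr3 ligands reached 490.4, 20.5 and 749 CPM in Tshr f/f and 12.96, 12.9 and 20.1 in Tshr MKO BMDMs. Tshr f/f replicate 2 therefore had an ELR sum like that of replicate 1 but a Cxcr3 ligand sum like that of Tshr MKO replicate 3. The like ELR sums hid opposite differences of members between Tshr f/f replicates 1 and 2. Cxcl1 (127 and 104 CPM per kilobase) and Cxcl2 (250 and 109) were lower in replicate 2. Cxcl3 (11.5 and 180) and Cxcl5 (7.45 and 20.4) were higher there.

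Of the other 3 members, only Cxcl16 was past an unadjusted p of 0.05. Cxcl16 (ENSMUSG00000018920, chr11:70453983-70459984, minus strand), the membrane-bound ligand of Cxcr6, had 228, 178 and 279.8 CPM in Tshr f/f and 145, 129.7 and 154 CPM in Tshr MKO BMDMs. The groups did not overlap, and both the log2 difference (−0.68, adjusted p = 0.223) and its SE (0.20) were the smallest of the 7.

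Cxcl12 (ENSMUSG00000061353, chr6:117168535-117181367, plus strand), the Cxcr4 ligand, had 23.6, 24.5 and 15.6 CPM in Tshr f/f and 27.3, 41.3 and 9.18 CPM in Tshr MKO BMDMs (log2 0.28, SE 0.52, adjusted p = 0.787). Cxcl14 (ENSMUSG00000021508, chr13:56288643-56296551, minus strand) had 2.50, 4.27 and 0.537 CPM in Tshr f/f and 2.76, 3.77 and 2.53 CPM in Tshr MKO BMDMs (log2 0.29, SE 0.66, adjusted p = 0.828). The groups overlapped for both genes. Tshr f/f replicate 3, the highest library for Cxcl1 and Cxcl2, was the lowest Tshr f/f library for both.

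**Figure D3:**
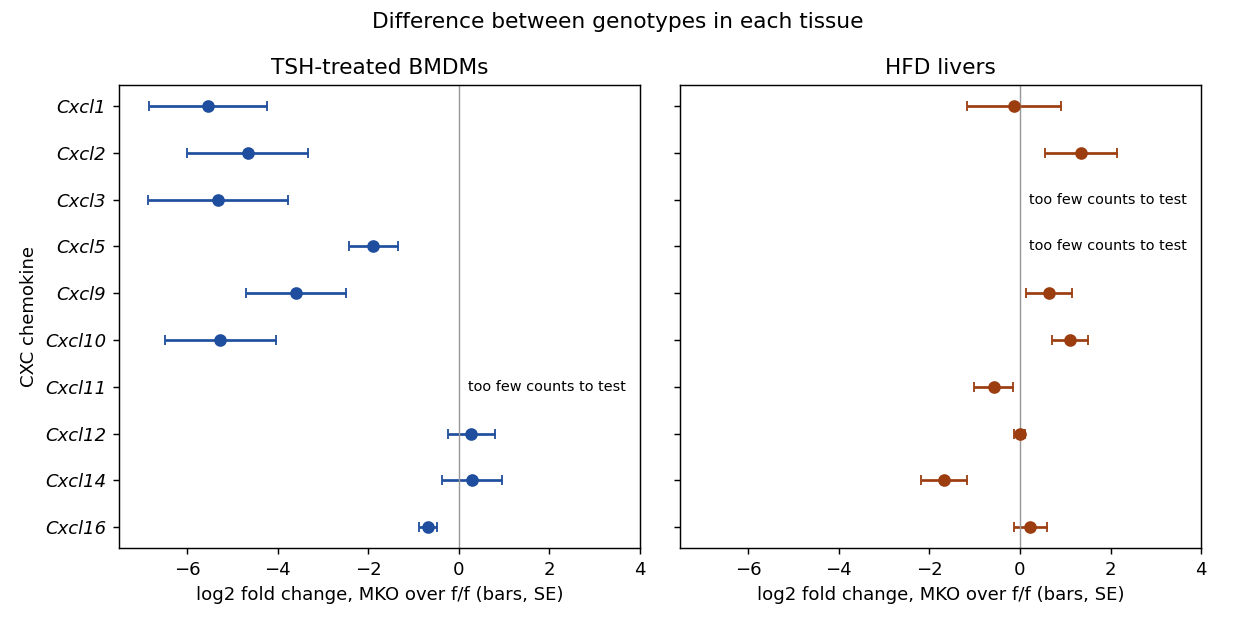
Log2 fold change of Tshr MKO over Tshr f/f for each chemokine in BMDMs and in livers, with bars for the SE. In BMDMs 7 points lay below 0, from −0.68 for Cxcl16 to −5.53 for Cxcl1, while in livers the points ran from −1.67 for Cxcl14 to 1.35 for Cxcl2.

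The same comparison in livers asked whether the chemokines differed in a whole tissue of HFD-fed mice whose myeloid cells lack Tshr. Of 15062 genes tested, 0 (0%) had an adjusted p under 0.05, the lowest being 0.0634, and at an unadjusted p under 0.05 there were 794 higher (5.27%) and 780 lower (5.18%) in livers labelled Tshr MKO. Of the 8 chemokines tested, 1 was higher and 1 was lower at that level, and the median log2 difference was 0.11, beside −0.01 for all genes. In the same 2 chemokines the groups did not overlap, 1 with the 3 values of Tshr MKO all above (9.6% of all genes) and 1 with all below (7.74%).

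Cxcl10 was higher in livers labelled Tshr MKO. It had 1.67, 2.82 and 2.89 CPM in Tshr f/f livers and 3.42, 4.56 and 7.91 CPM in Tshr MKO livers, without overlap (log2 1.10, SE 0.40, adjusted p = 0.424, edgeR). By the labels its groups separated in opposite directions in the 2 tissues, and under the turned headings of the receptor table it would be lower in Tshr MKO in both. Cxcl9 pointed the same way but overlapped, with 3.98, 13.5 and 6.49 CPM in Tshr f/f and 8.76, 9.57 and 19.1 CPM in Tshr MKO livers (log2 0.64, SE 0.51, adjusted p = 0.712). Cxcl11 pointed the other way, with 7.86, 2.52 and 5.05 CPM in Tshr f/f and 2.58, 3.90 and 3.95 CPM in Tshr MKO livers (log2 −0.58, SE 0.43, adjusted p = 0.694).

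Cxcl14 was lower in livers labelled Tshr MKO. It had 6.82, 4.17 and 4.24 CPM in Tshr f/f livers and 0.769, 2.81 and 1.22 CPM in Tshr MKO livers, without overlap (log2 −1.67, SE 0.50, adjusted p = 0.351, edgeR). Cxcl12 was the most even of the members across livers, with 458, 357 and 423 CPM in Tshr f/f and 408, 409 and 428 CPM in Tshr MKO livers (log2 −0.00, SE 0.13, adjusted p = 0.993). Cxcl16 had 4.97, 13.6 and 10.0 CPM in Tshr f/f and 11.95, 13.5 and 8.38 CPM in Tshr MKO livers (log2 0.23, SE 0.36, adjusted p = 0.879).

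The ELR chemokines were uneven in livers. Cxcl1 had 87.8, 13.8 and 6.27 CPM in Tshr f/f and 13.2, 21.9 and 64.4 CPM in Tshr MKO livers, with wide overlap (log2 −0.13, SE 1.03, adjusted p = 0.982). Its highest library, Tshr f/f replicate 1, also had the largest sum of the 10 neutrophil markers, 132.9 CPM against 19.8–58.8 CPM in the other 5 livers, and the smallest sum of the 6 endothelial markers, 61.9 CPM against 145–231 CPM, and their part in the result was not tested. Without that library the log2 difference of Cxcl1 was 1.72. Cxcl2 had 1, 12 and 2 counts in Tshr f/f and 11, 22 and 9 counts in Tshr MKO livers (log2 1.35, SE 0.80, adjusted p = 0.597). Cxcl3 had 0 counts in all 6 livers and Cxcl5 had 3 counts in 1 library labelled Tshr MKO and 0 in the other 5, so neither was tested.

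Whether the genotype difference itself differed between BMDMs and livers was tested as an interaction over the 12 libraries. Of 17246 genes, 1 (0.0058%) had an adjusted p under 0.05 and 7.42% were more negative in BMDMs at an unadjusted p under 0.05. By the sample labels, 0 of the chemokines passed the adjusted threshold in edgeR and 5 were more negative in BMDMs at an unadjusted p under 0.05, namely Cxcl1, Cxcl2, Cxcl9, Cxcl10 and Cxcl11. The interaction of Cxcl10 was −6.35 on the log2 scale (SE 1.32, adjusted p = 0.129), followed by Cxcl2 (−6.00, SE 1.79, adjusted p = 0.211) and Cxcl1 (−5.41, SE 1.75, adjusted p = 0.236). Those of Cxcl11 (−4.76, adjusted p = 0.256) and Cxcl9 (−4.23, adjusted p = 0.221) were smaller. The sizes for Cxcl11 and Cxcl2 are uncertain, with 4, 3 and 0 counts in Tshr MKO BMDMs and 1, 12 and 2 counts in Tshr f/f livers, respectively. The interaction of Cxcl14 was of opposite sign (1.96, SE 0.91, adjusted p = 0.357). This order rests on the liver labels. With the liver headings turned, Cxcl11 (−5.89) and Cxcl1 (−5.64) came before Cxcl10 (−4.16), Cxcl2 (−3.29) and Cxcl9 (−2.95), Cxcl14 was at −1.35, and 0 passed the adjusted threshold. Without Tshr f/f BMDM replicate 2, where 341 genes passed in all, the interactions of Cxcl9, Cxcl10 and Cxcl11 passed the threshold (adjusted p = 0.0212, 0.00243 and 0.0225), where over all alternatives the adjusted p ranged from 0.0154 to 0.429, from 2.2e-05 to 0.330 and from 0.0225 to 0.441. Cxcl3 and Cxcl5 gave no usable value because of their counts of 0 in livers.

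Between tissues the members divided sharply, but culture, TSH, diet, insulin and age all differed along with the tissue and cannot be told apart from it. Of 15931 genes, 29.6% were higher and 33.8% lower in Tshr f/f BMDMs than in Tshr f/f livers at an adjusted p under 0.05. Of the 10 chemokines, 6 were higher (Cxcl2, Cxcl3, Cxcl5, Cxcl9, Cxcl10 and Cxcl16) and 1 was lower (Cxcl12). Cxcl12 was 19.5-fold lower in BMDMs (log2 −4.28, SE 0.27, adjusted p = 5.9e-05). Cxcl16 was 23.8-fold higher (log2 4.57, SE 0.44, adjusted p = 0.000307), Cxcl10 187-fold higher (log2 7.54, SE 1.40, adjusted p = 0.00397) and Cxcl2 was higher by 12.86 on the log2 scale (SE 1.89, adjusted p = 0.00155). Cxcl2 had 1, 12 and 2 counts in the Tshr f/f livers, so the size of its difference is uncertain. Without Tshr f/f BMDM replicate 3 the differences of Cxcl2, Cxcl10 and Cxcl9 were 10.64, 6.90 and 3.73.

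Cxcl3 had 0 counts in every Tshr f/f liver, which allows up to 3 counts per library or 0.128 CPM on average, so it was at least 1516-fold higher in Tshr f/f BMDMs (adjusted p = 0.0080, edgeR), or at least 759.8-fold without Tshr f/f replicate 3. By the same bound Cxcl5 was at least 169.8-fold higher (adjusted p = 0.000756). Cxcl9 was higher by 4.77 on the log2 scale (SE 1.25, adjusted p = 0.0154), and lost its call without Tshr f/f liver replicate 1 or 3 (adjusted p = 0.0539 and 0.0621, and 4.8e-06 to 0.210 over all alternatives). Cxcl1, the ELR member that livers also expressed, was higher by 3.82 (SE 1.48, adjusted p = 0.0614) and gained a call without Tshr f/f BMDM replicate 2 or Tshr f/f liver replicate 1 (adjusted p = 0.0485 and 0.0324, and 0.0210 to 0.238 over all alternatives). Cxcl11 (log2 −1.44, adjusted p = 0.344) and Cxcl14 (log2 −1.05, adjusted p = 0.224) did not pass the threshold.

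In Tshr MKO libraries, where 36.2% of 16267 genes were higher and 39.5% lower in BMDMs, 5 chemokines were higher and 2 lower. Cxcl12 was again lower (log2 −3.97, SE 0.54, adjusted p = 0.000556), and so was Cxcl11 (log2 −6.17, SE 0.69, adjusted p = 0.000193). Cxcl11 had 67 to 118 counts in these livers but 4, 3 and 0 counts in the BMDMs, so the size of its difference is uncertain. Cxcl10 was higher by 1.21 (SE 0.34, adjusted p = 0.0149), less than the 7.54 of the controls. Cxcl1 was at −1.58 (SE 0.71, adjusted p = 0.0823) and Cxcl9 at 0.56 (SE 0.37, adjusted p = 0.210), neither past the threshold. Cxcl3 was at least 41.4-fold higher in BMDMs, again against a limit of 3 counts per liver library, or at least 12.6-fold without Tshr MKO replicate 3.

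**Figure D4:**
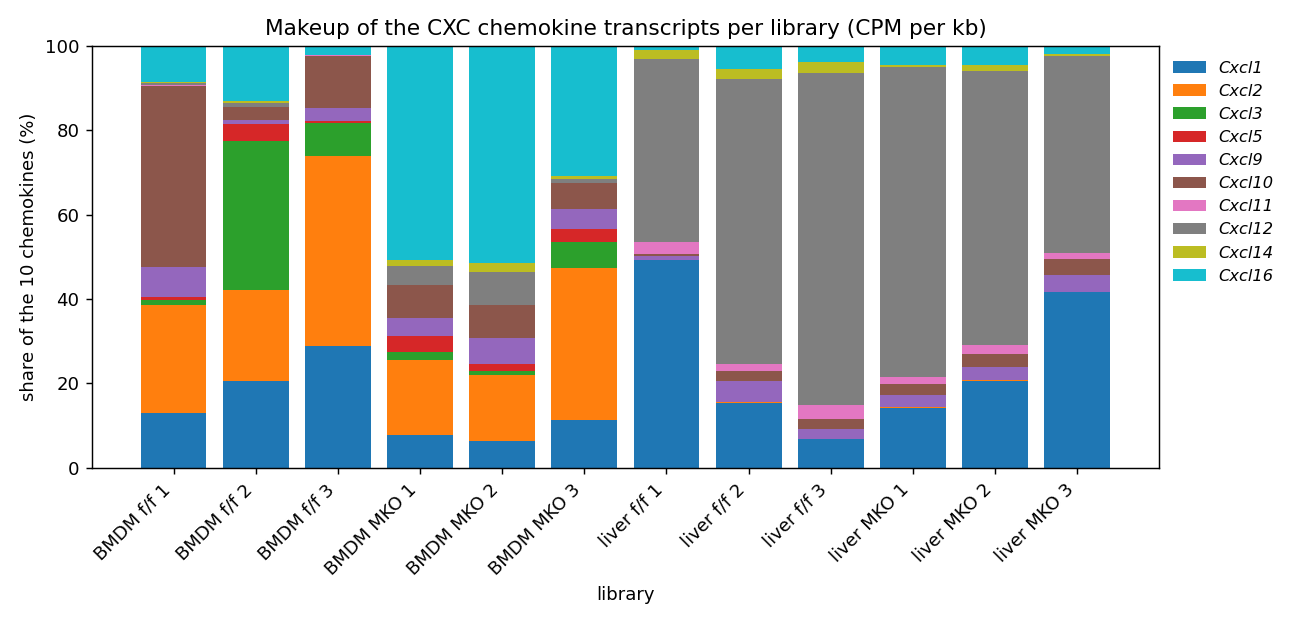
Share of each chemokine among the 10, in percent, for every library, from CPM per kilobase of transcript, with 1 bar per library. Cxcl12 and Cxcl1 filled most of each liver bar, Cxcl16 was the largest share in Tshr MKO BMDM replicates 1 and 2, and Cxcl10, Cxcl3 and Cxcl2 were the largest in Tshr f/f BMDM replicates 1, 2 and 3.

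Levels of different genes were compared per kilobase of the longest protein-coding transcript. In Tshr f/f BMDMs, the order of mean levels began with Cxcl2 (range 109–2152 CPM per kilobase), Cxcl1 (104–1377) and Cxcl10 (15.7–592), and these 3 kept their order when all annotated exons were used as the length. Each range overlapped with the next, and so on through Cxcl3, Cxcl16, Cxcl9 and Cxcl5 that followed, although Cxcl16 (66.1–104) and Cxcl5 lay apart. Cxcl12 (2.78–4.36) lay below Cxcl5 (7.45–20.4) and above Cxcl14 (0.294–2.34) without overlap.

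In Tshr MKO BMDMs the order began with Cxcl16 (48.1–57.2 CPM per kilobase) and Cxcl2 (14.7–66.7), with overlap. Summed over the set, the ELR members made up 40.6%, 81.6% and 82.1% of the chemokine level per kilobase in the Tshr f/f cells, against 31.2%, 24.7% and 56.6% in the Tshr MKO cells, so these shares overlapped. The Cxcr3 ligands made up 50.2%, 4.05% and 15.7% in Tshr f/f and 12.2%, 13.8% and 10.8% in Tshr MKO BMDMs.

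In livers of both genotypes the order began with Cxcl12 and Cxcl1. In Tshr f/f livers their ranges overlapped (63.4–81.3 and 6.58–92.1 CPM per kilobase), and in livers labelled Tshr MKO they did not (72.4–76.0 and 13.9–67.6). Cxcl2, the first gene in the order of control BMDMs, was eighth of the 10 in both liver groups, with 0.0243–0.243 in Tshr f/f and 0.227–0.391 in Tshr MKO livers.

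Apart from Cxcr4, the receptors were low in BMDMs. Of 8 receptor genes 5 were tested there, with 1 lower and 1 higher at an unadjusted p under 0.05 (10.2% and 7.73% of all genes) and 0 past the adjusted threshold. In 2 receptors the 3 values of Tshr MKO all lay above the 3 of Tshr f/f, as they did in 2268 of 15372 genes. Cxcr4, the Cxcl12 receptor, had 27.9, 42.0 and 4.86 CPM in Tshr f/f and 80.6, 71.7 and 84.7 CPM in Tshr MKO BMDMs, without overlap (log2 1.65, SE 0.68, adjusted p = 0.278). Ackr3, a scavenger of Cxcl12, had 0.61, 4.97 and 2.18 CPM in Tshr f/f and 0.25, 0.18 and 0.63 CPM in Tshr MKO BMDMs (log2 −2.89, SE 0.87, adjusted p = 0.225). Cxcr3, which binds Cxcl9, Cxcl10 and Cxcl11, had 1.19, 2.54 and 0.37 CPM in Tshr f/f and 3.42, 2.70 and 6.16 CPM in Tshr MKO BMDMs, without overlap (log2 1.55, SE 0.68, adjusted p = 0.294). Cxcr6, the Cxcl16 receptor, was at −0.86 (adjusted p = 0.450) and Cxcr5, the Cxcl13 receptor, at −0.35 (adjusted p = 0.755). Cxcr2, the receptor of the ELR members, had 0 counts in 5 of 6 BMDM libraries and 8 in the other, and Cxcr1 and the scavenger Ackr1 stayed at or under 0.22 CPM.

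In livers 3 receptors were tested and 0 passed an unadjusted p of 0.05. Cxcr2 had 0.90, 1.32 and 1.08 CPM in Tshr f/f and 0.35, 1.19 and 1.69 CPM in Tshr MKO livers (log2 −0.05, adjusted p = 0.988). Cxcr4 was at −0.10 (adjusted p = 0.969) and Ackr1 at 0.46 (adjusted p = 0.931).

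The other CXC ligands did not pass an unadjusted p of 0.05 in either tissue. In BMDMs the platelet factor Pf4 had 24.7, 69.3 and 52.9 CPM in Tshr f/f and 70.3, 40.7 and 82.6 CPM in Tshr MKO cells (log2 0.38, SE 0.42, adjusted p = 0.639). Its gene lies between Cxcl5 and Cxcl3 on chromosome 5. The B cell attractant Cxcl13 was at −0.94 in BMDMs (adjusted p = 0.509) and −0.61 in livers (adjusted p = 0.804). Ppbp, a platelet gene next to Pf4, was at 0.67 (adjusted p = 0.797) and 1.02 (adjusted p = 0.738), and Pf4 in livers at 0.16 (adjusted p = 0.955). Cxcl15 and Cxcl17 had 0 counts in all 12 libraries.

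The NF-kB signal acts upstream of the ELR members, and a list of 20 genes of this arm was measured. It held inhibitors of NF-kB (among them Nfkbia and Tnfaip3) and genes that NF-kB itself induces, beside activators. A shared direction of the list therefore does not give the direction of the signal. In BMDMs all 20 had a negative log2 difference, 15 of them at an unadjusted p under 0.05 (10.2% of all genes), with a median of −1.61 beside 0.01 for all genes, and 0 passed the adjusted threshold. Il1b, a cytokine that induces the ELR members, had 159.6, 328 and 4374 CPM in Tshr f/f and 3.92, 2.56 and 64.5 CPM in Tshr MKO BMDMs (log2 −6.11, SE 2.01, adjusted p = 0.236). Il1a was at −5.67 (SE 1.60, adjusted p = 0.222). Tnf, the prototype NF-kB stimulus, had 718, 67.0 and 4742 CPM in Tshr f/f and 48.7, 44.8 and 62.6 CPM in Tshr MKO BMDMs (log2 −5.15, SE 1.45, adjusted p = 0.222). Nfkbiz, an atypical IkB protein needed for late NF-kB targets, was at −3.17 (SE 0.90, adjusted p = 0.222). As with Cxcl1 and Cxcl2, the highest library for Il1b and Tnf was Tshr f/f replicate 3. In livers 19 were tested, with a median of −0.13, and 1 was higher at an unadjusted p under 0.05 (5.27% of all genes): Il1a, by 1.08 (SE 0.36, adjusted p = 0.403). None was lower at that level.

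**Figure D5:**
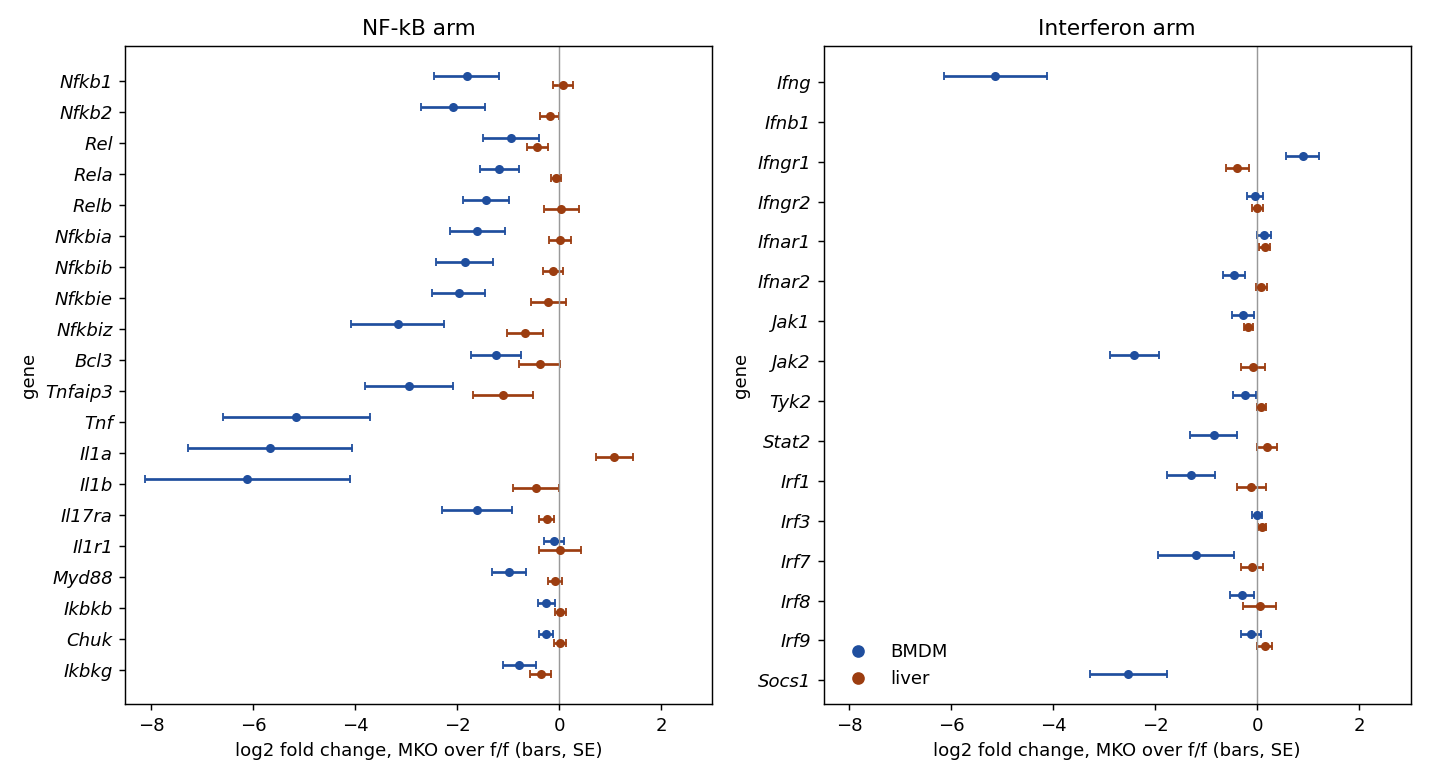
Log2 fold change of Tshr MKO over Tshr f/f, with bars for the SE, for 20 genes of the NF-kB arm and 16 of the interferon arm in BMDMs and livers (a gene without a point had too few counts). The BMDM points of the NF-kB arm all lay below 0, with a median of −1.61, and the liver points lay around 0, with a median of −0.13.

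The interferon arm upstream of the Cxcr3 ligands was less uniform. Of 16 of 17 genes tested in BMDMs, 5 were lower and 1 higher at an unadjusted p under 0.05 (10.2% and 7.73% of all genes), with a median of −0.38. Ifng, the cytokine that induces Cxcl9, had 781, 108 and 922 counts in Tshr f/f and 16, 16 and 32 counts in Tshr MKO BMDMs (log2 −5.14, SE 1.01, adjusted p = 0.218). The 6 T and NK cell markers summed to 7.49–15.3 CPM in Tshr f/f and 4.01–18.4 CPM in Tshr MKO BMDMs, and their part in the Ifng counts was not tested. Socs1, a feedback inhibitor of the pathway, was at −2.53 (SE 0.75, adjusted p = 0.223), the kinase Jak2 at −2.41 (SE 0.48, adjusted p = 0.218) and the transcription factor Irf1 at −1.30 (SE 0.46, adjusted p = 0.252). The receptor chain Ifngr1, named after its value was seen, was the gene that was higher (log2 0.89, SE 0.32, adjusted p = 0.257). Tshr f/f replicate 2, low for Cxcl9, Cxcl10 and Cxcl11, was also the lowest of the 3 control libraries for Ifng. The same library was the lowest of the controls for Cxcl1, Cxcl2, Cxcl16 and Tnf as well, so this was not particular to the interferon arm. In livers 14 were tested and 0 passed an unadjusted p of 0.05, with Ifngr1 at −0.39 as the largest difference.

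Proteins that process the ligands or destroy their transcripts were mixed in direction. Of 6 processing enzymes in BMDMs, Mmp9, which trims ELR chemokines, was lower (log2 −1.90, SE 0.47, adjusted p = 0.218), and Mmp12 (1.28, SE 0.40, adjusted p = 0.230) and Adam10, a sheddase of Cxcl16 (0.57, SE 0.19, adjusted p = 0.236), were higher at an unadjusted p under 0.05. Of 7 decay factors, Zc3h12a, an RNase that degrades inflammatory transcripts, was lower (−2.09, SE 0.77, adjusted p = 0.257), and Zfp36l2 (1.23, SE 0.36, adjusted p = 0.222) and Zfp36l1 (0.67, SE 0.27, adjusted p = 0.269) were higher at that level. Of all genes in BMDMs, 10.2% were lower and 7.73% higher at the same level. In livers Zc3h12a (−0.88, adjusted p = 0.368), Zfp36l2 (−0.82, adjusted p = 0.331) and Zfp36 (−0.33, adjusted p = 0.371) were lower at an unadjusted p under 0.05, as was the enzyme Mmp8 (−1.37, adjusted p = 0.433). Mmp8 is also on the list of 10 neutrophil markers. Of the 9 tested in livers, 8 had a negative log2 difference (median −1.37), 2 of them at an unadjusted p under 0.05, and their part in the result was not tested. Of all genes in livers, 5.18% were lower at that level.

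Genes outside the family whose pattern was most like that of the members were ranked by Pearson's r over the 6 BMDM libraries, as a description. For the mean log2 pattern of the 4 ELR members they included Khdc4 (r = 0.999), Tapt1 (0.997), P2ry10 (0.995) and Ttc39b (0.995). For Cxcl9 and Cxcl10 they were Il20rb (0.998), Irgm2 (0.998), AI837181 (0.996), Phf11 (0.996) and Prpf38a (0.995). In the 6 livers Cxcl1 and Cxcl2 did not follow each other (r = −0.11). Their mean was most like Hinfp (0.985), Dcun1d5 (0.984), Mvb12a (0.975), Mospd3 (0.974) and St3gal4 (0.974). For the mean of the Cxcr3 ligands in livers they included D11Wsu47e (0.991), Nipbl (0.990), Stard3nl (0.977) and Tyk2 (0.977). Cxcl9 and Cxcl10 followed each other there (r = 0.84), but Cxcl11 ran against both (−0.69 and −0.39). Neither liver mean therefore stands for a pattern shared by all its members. The libraries behind each r are the same 2 genotype groups of 3.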

How the data were processed

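RNA from BMDMs and livers (n = 3 per group) was sequenced from strand-specific TruSeq libraries on an Illumina NovaSeq instrument. Reads were trimmed with Skewer and checked with FastQC 0.11.2, and the submitters' processing notes name STAR, StringTie and the build mm10. How the counting used strand and reads shared by similar genes is not given in the sources used here. The authors deposited raw counts per gene, and only this unit was used.

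Counts were tested in R 4.3.3 with the robust quasi-likelihood test of edgeR 4.0.16, after filterByExpr and with TMM factors, within a tissue for the genotype, within a genotype for the tissue, and over 12 libraries for the interaction, with Benjamini-Hochberg adjustment over all genes tested and a threshold of 0.05. The study's own test (the MARS model of DEGseq) was not used. The SE is the log2 difference over the square root of F. The tests were tested on simulated data. The 10 members were all named with every library. Of the other CXC ligands and receptors, some were given by library and others by a log2 difference or a limit alone. Receptors not tested in livers were not named there. Of other lists, up to 4 genes at an unadjusted p under 0.05 with the largest differences, or else the 2 largest, were named. The members and lists were chosen with earlier results of these data known. Totals ranged from 28962878 to 40954211 counts, and intervals and limits from counts cover counting error only. With 3 libraries against 3, an exact permutation test cannot go below p = 0.1, and none is printed. Alternatives were other scalings (RLE, upper quartile, totals), other filters, DESeq2 1.42.0, a fit of all 12 libraries, a block for replicate number, a covariate for the letter that starts a liver's ID, Tshr MKO libraries for the tissue comparison and each library left out. Gene models came from GENCODE M21 (GRCm38) and promoter windows from RefSeq (GRCm38.p6), which held 7 of the 10 members. Figures were drawn with matplotlib 3.10.9. The 5 genes most like the members in pattern were ranked in each tissue, and some genes of that ranking and of the lists are not reported here. The turned liver headings and the lower bounds without a BMDM library were alternatives chosen after seeing the data.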

Additional observations from a re-analysis of the deposited data

How the results depend on the processing

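For BMDMs, the count of 0 members past an adjusted p of 0.05 became 6 with DESeq2 (Cxcl2, Cxcl3, Cxcl5, Cxcl9, Cxcl10 and Cxcl16, with Cxcl1 given no adjusted p) and 1 with all 12 libraries in 1 fit (Cxcl10), and 0 to 1 with a library left out (Cxcl10, without Tshr f/f replicate 2). Over all genes the count of 0 became 1223 with DESeq2, 150 with all 12 libraries, 1 with the replicate block, 13 when Tshr f/f replicate 2 was left out and 2 when replicate 3 of that group was, and was 0 in the other 9 alternatives. In the interaction the count of 0 became 3 with DESeq2 (Cxcl2, Cxcl9 and Cxcl10) and 0 to 3 with a library left out (3 without Tshr f/f BMDM replicate 2), while the count over all genes went from 1 to 774 and to 0 to 341. The interaction median of −5.03 was taken over all 10 chemokines, including Cxcl3 and Cxcl5, whose own values were not usable. It ranged from −5.25 to −3.49, the latter without Tshr f/f BMDM replicate 3. With the liver headings turned, an alternative chosen after seeing the data, that median was −3.12 and Cxcl14 was at −1.35. The median in livers, 0.11, was 0.38 with the replicate block and 0.46 with the ID letter, and the count lower at an unadjusted p under 0.05 was 1 to 2 with a library left out (2 without Tshr f/f liver replicate 2). The median between tissues, 4.67, was 1.07 in Tshr MKO libraries, where Cxcl1 (−1.58) and Cxcl14 (0.93) changed sign. Other reversals concerned differences near 0. With a library left out, Cxcl14 ranged from −0.17 to 0.97 and Cxcl12 from −0.23 to 0.69 in BMDMs, Cxcl12 from −0.23 to 0.68 in the interaction, and Cxcl1 from −1.08 to 1.72, Cxcl12 from −0.11 to 0.0758 and Cxcl16 from −0.0785 to 0.57 in livers. Cxcl12 in livers was also 0.00580 with upper-quartile factors, 0.0297 with totals, 0.00964 with no filter, 0.00759 with all 12 libraries, 0.00291 with the replicate block and 0.00730 with the ID letter, and Cxcl1 was 0.46 with the block and 0.88 with the letter. The cause of these changes was not tested.

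Same-numbered libraries showed no clear shared deviation (correlations of 0.10, 0.01 and 0.10 in BMDMs, and −0.06, 0.22 and −0.02 in livers). Differently numbered libraries ranged from −0.19 to 0.15 in BMDMs and from −0.29 to 0.28 in livers. With 3 libraries per group this check cannot exclude that samples were paired. With the replicate block, 6 members in place of 7 were lower at an unadjusted p under 0.05 in BMDMs, with a median of −2.83, and Cxcl9 lost its call between tissues (adjusted p = 0.0979).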
